A study of Mus musculus with 12 samples.

Results

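Interferon-stimulated genes were examined in D2A1 and D2.OR, a pair of cell lines from mouse mammary tumours, grown in 2D on plastic or in 3D on top of Matrigel, a basement membrane extract. The set was a list of 41 genes, taken by symbol, of the 52550 genes in the files. It holds the STAT and IRF factors, the sensors of foreign nucleic acid and the antiviral effectors that interferon is known to switch on, and the rule that lists them uses symbols and no measured value. All 41 symbols matched a gene, and all 41 passed the filter on low counts, as did 16823 genes in all. RNA-seq was done on 12 libraries, 3 in each of the 4 groups (D2A1 in 2D, D2A1 in 3D, D2.OR in 2D, D2.OR in 3D), and replicates 1, 2 and 3 of every group formed batches 1, 2 and 3.

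The labels name no added allele or drug in any group, and each line came from 1 mouse tumour, the tumours having formed in different mice. The study used D2.OR as a line that stays dormant at low cell number in 3D, and D2A1 as the line that proliferates there. RNA of a sample came from several pooled wells. The 3D cultures were kept in a low-serum medium with hydrocortisone, cholera toxin and insulin. The sources do not say clearly whether the sequenced 2D cultures had the same medium. Before RNA was taken, cells were freed from Matrigel in an ice-cold recovery solution, a step that the study's methods describe for Matrigel alone. Matrix, medium and harvest therefore cannot be told apart. A batch was also 1 sequencing lane, so lane and culture replicate cannot be told apart either. In bulk RNA, fewer cells that express a gene and less of its RNA per cell cannot be told apart.

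Type I interferons bind the receptor Ifnar1-Ifnar2. The kinases Jak1 and Tyk2 then phosphorylate STAT factors such as Stat2, which joins Irf9 in the complex ISGF3. ISGF3 binds the interferon-stimulated response element (ISRE), and the gamma-activated site (GAS) is the element of the response to interferon gamma. Many tumour cell lines keep some of these genes on without added interferon.

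The promoters of several of these genes show such elements as letters. The ISRE core was searched as GAAA, any pair of bases and GAAA, and the GAS core as TTC, any 3 bases and GAA, on both strands, from 250 bases before to 50 bases after the RefSeq start site (GRCm38.p6). The ISRE core lay in 15 of the 31 member genes with such a sequence (48.4%), against 3.99% of 27025 genes and 3.44% of 32851 promoters of that length. The GAS core lay in 6 of the 31 (19.4%), against 9.55% of genes and 8.30% of promoters. The other 10 member genes had no entry. A match is a description of the letters, not a measured binding site. Stretches of 100 bases are given for genes on which the results turn, 5′ to 3′ on the strand of the gene, with matches of 1 of the motifs in capitals (an ISRE core on the other strand reads TTTC, a pair of bases and TTTC). The capitals are the ISRE core in all but Irf1, where they are the GAS core. The stretches of Bst2 and Oas1a also hold a GAS core each, which is not marked.
Isg15 (chr4:156200836-156200935, minus strand): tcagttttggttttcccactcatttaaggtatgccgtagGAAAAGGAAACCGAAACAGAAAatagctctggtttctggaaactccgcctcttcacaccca
Ifit1 (chr19:34640749-34640848, plus strand): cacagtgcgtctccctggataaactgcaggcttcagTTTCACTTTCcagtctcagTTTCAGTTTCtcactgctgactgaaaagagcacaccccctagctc
Ifit3 (chr19:34583345-34583444, plus strand): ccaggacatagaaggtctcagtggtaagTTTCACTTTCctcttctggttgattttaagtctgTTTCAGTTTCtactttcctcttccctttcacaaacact
Ifit3b (chr19:34607741-34607840, plus strand): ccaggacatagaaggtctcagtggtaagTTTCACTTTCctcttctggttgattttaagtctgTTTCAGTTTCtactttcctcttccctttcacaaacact
Oas1a (chr5:120907526-120907625, minus strand): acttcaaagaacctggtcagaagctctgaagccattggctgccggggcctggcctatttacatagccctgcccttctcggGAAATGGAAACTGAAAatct
Oas3 (chr5:120777680-120777779, minus strand): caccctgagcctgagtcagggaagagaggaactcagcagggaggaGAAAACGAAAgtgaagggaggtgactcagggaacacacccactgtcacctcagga
Bst2 (chr8:71537545-71537644, minus strand): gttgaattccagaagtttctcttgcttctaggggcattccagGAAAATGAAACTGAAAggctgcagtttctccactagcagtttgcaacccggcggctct
Stat2 (chr10:128270248-128270347, plus strand): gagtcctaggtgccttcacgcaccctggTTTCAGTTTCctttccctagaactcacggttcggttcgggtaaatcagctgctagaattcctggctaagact
Irf1 (chr11:53769878-53769977, plus strand): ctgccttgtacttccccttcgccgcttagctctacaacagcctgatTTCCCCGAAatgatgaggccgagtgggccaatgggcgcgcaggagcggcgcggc

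Isg15 held 3 overlapping ISRE cores, the first beginning 78 bases before its start site, and the pairs in Oas1a and Bst2 overlapped as well. The stretches of Ifit3 and Ifit3b, neighbouring copies of 1 gene, were identical in 100 of 100 bases. The log2-fold change in 3D had a median of -1.37 over the 15 genes with an ISRE core and -1.15 over the 16 without in D2A1. In D2.OR the medians were -1.26 and -1.12. The ranges overlapped in both lines, which does not decide the matter, since full ranges of such groups overlap easily. Whether the motif goes with the size of the change was not tested. The members lie on 15 chromosomes, and 19 of them sit in 7 clusters with gaps of at most 100 kb. The largest are the Ifit genes (chr19:34550694-34650009) and the Oas genes (chr5:120730333-120907521).

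Library totals ran from 47589611 to 73325069 counts. The lowest count of any member in any library was 34, for Mx1, so low counts did not limit these genes. Levels are in TPM, the authors' unit of transcript abundance, scaled for transcript length and for the library as a whole. Counts that were not whole in all 12 libraries, as arises when RSEM divides a read among matching genes, were found for 11 members: Ifit1, Ifit3, Ifit3b, Oas1a, Oas1g, Mx1, Mx2, Parp9, Dtx3l, Eif2ak2 and Herc6. How their reads divide among the matching genes is uncertain. Parp9 and Dtx3l overlap on opposite strands, Irf9 overlaps Rnf31, Irf7 overlaps Phrf1 and Rtp4 overlaps Masp1. The sources do not state whether counting used the strand. Markers of immune cells were near 0: the 8 genes, Ptprc among them, summed to 0.02 to 0.61 TPM in a library, and Ncr1 and Siglech were at 0 in all. The 3 endothelial markers summed to 0.09 to 0.42 TPM. The epithelial markers Cdh1 and Krt8 reached no more than 0.28 and 2.31 TPM in D2A1, while D2.OR had 8.93 to 183.0 and 227.0 to 1022.0 TPM. In D2A1, these defining epithelial markers were thus near absent, while Krt18 was at 92.7 to 294.0 TPM. In D2.OR, Cdh1 was lower in 3D than in 2D and highest in batch 1 of each culture, at 183.0, 22.2 and 23.0 TPM in 2D and 61.3, 8.93 and 11.5 TPM in 3D (log2-fold change -1.36, SE 0.21, adjusted p = 0.0215, edgeR). Krt8 was at 855.0, 700.0 and 1022.0 TPM in 2D and 227.0, 305.0 and 527.0 TPM in 3D (-1.31, adjusted p = 0.125). The 4 mesenchymal markers summed to 1607 to 6223 TPM. Vim was higher in D2.OR by 1.93 in 2D and 1.25 in 3D on the log2 scale (adjusted p = 0.000216 and 0.00196, edgeR), Zeb1 was lower (-2.68 and -3.21), and Cdh2 was at no more than 0.14 TPM. Vim was highest in batch 1 of all 4 groups, in D2A1 at 2482.0, 733.0 and 794.0 TPM in 2D and 3138.0, 1111.0 and 1061.0 TPM in 3D, while Fn1 was lowest in batch 1 in 3 of the 4. The part of these markers in the results below was not tested.

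The summed level of the member genes was high in both lines without added interferon, and it differed by batch as well as by group. Single members could be low: Oas2 was at 0.94 and 0.92 TPM in replicates 2 and 3 of D2A1 in 3D. Bst2 and Isg15 held a large part, and without them the sum of D2A1 2D replicate 1 was 5919 TPM. In D2A1 the sum was 9722, 4800 and 5699 TPM in 2D (replicates 1, 2 and 3) and 7374, 1278 and 1153 TPM in 3D. In D2.OR it was 13612, 6599 and 7860 TPM in 2D and 5910, 3460 and 2918 TPM in 3D. The sum was lower in 3D than in 2D in each of the 6 pairs of a line and a batch, and replicate 1 was the highest of its group in all 4 groups. The group means were 6740 ± 2621 (D2A1 2D), 3268 ± 3556 (D2A1 3D), 9357 ± 3738 (D2.OR 2D) and 4096 ± 1594 TPM (D2.OR 3D), each an SD over n = 3. Bst2, which encodes tetherin, the membrane protein that holds budding virus to the cell, had the highest TPM of the members in 10 libraries. Ifi27 had it in replicates 2 and 3 of D2A1 in 3D. Mx1 was the lowest in every library.

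**Figure D1:**
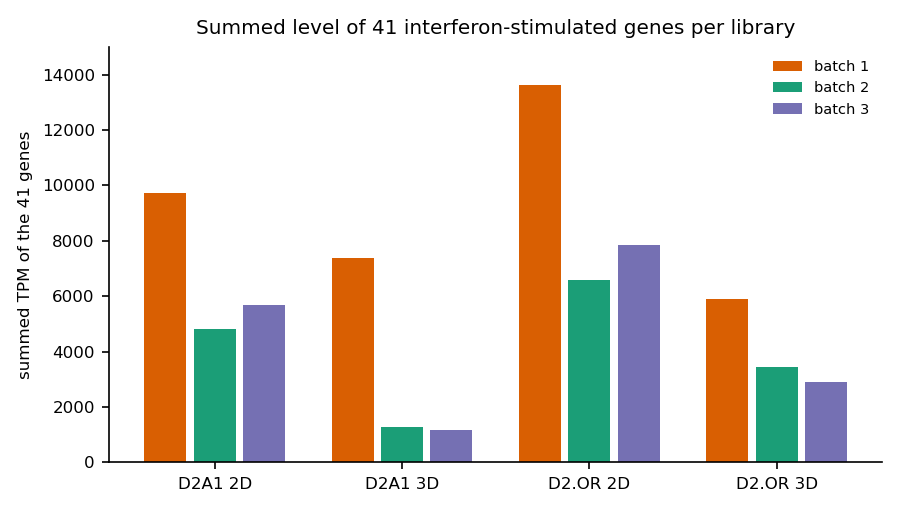
Bars give the summed TPM of the 41 genes in each of the 12 libraries, grouped by line and culture and coloured by batch. Batch 1 is the highest bar of each group, and the D2A1 3D bars fall from 7374 in batch 1 to 1278 and 1153 in batches 2 and 3.

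The library D2A1 3D replicate 1 stood apart from its group. Its members were a median of 7.53-fold above the mean of replicates 2 and 3, while replicate 1 of the other groups was 1.99-fold (D2A1 2D), 1.85-fold (D2.OR 2D) and 1.84-fold (D2.OR 3D) above. Over all genes tested, the median log2 ratio of batch 1 to the others lay between -0.03 and 0.09. Batch 1 was the highest of 3 for 39, 40, 39 and 37 of the 41 members in D2A1 2D, D2A1 3D, D2.OR 2D and D2.OR 3D, against 40.8%, 50.8%, 36.7% and 47.6% of all genes. In D2A1 3D the ratio was 47.7-fold for Ifit3 and for Ifit3b, 40.9-fold for Oas2, 28.9-fold for Ifi44 and 20.6-fold for Usp18. It was 1.48-fold for Irf1 and 0.964-fold for Ifi27. The part of lane, culture or handling in this difference was not tested, and the numbers of members past the adjusted threshold are also given below without that library. The library is singled out here by the levels of these same members, so larger counts without it add no separate support.

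Growth in 3D went with lower levels of nearly all members in both lines. Within a batch, 3D was lower than 2D for 38, 41 and 41 of the 41 members in D2A1 (batches 1, 2 and 3) and for 40 of 41 in each batch of D2.OR. The share of all genes that were lower was 51.8%, 57.8% and 55.5% in D2A1 and 35.0%, 45.4% and 49.9% in D2.OR. The median log2 ratio of TPM, with 0.1 TPM added to each value, was -0.34, -2.03 and -2.38 in D2A1 and -1.24, -0.91 and -1.35 in D2.OR. The same medians over all genes were -0.01, -0.12 and -0.10 in D2A1 and 0.12, 0.03 and 0.00 in D2.OR. The median of the members was the lower in each pair, by least in D2A1 batch 1. The D2A1 pair of batch 1 was also the least changed over all genes: 2.71% of genes were more than 2-fold lower there, against 8.31% and 10.9% in batches 2 and 3. In D2A1, 38 members were lower in all 3 batches (28.6% of all genes were) and 0 higher (17.5%). In D2.OR, 40 members were lower (17.4% of all genes) and 1, Ifi27, higher (28.6%).

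**Figure D2:**
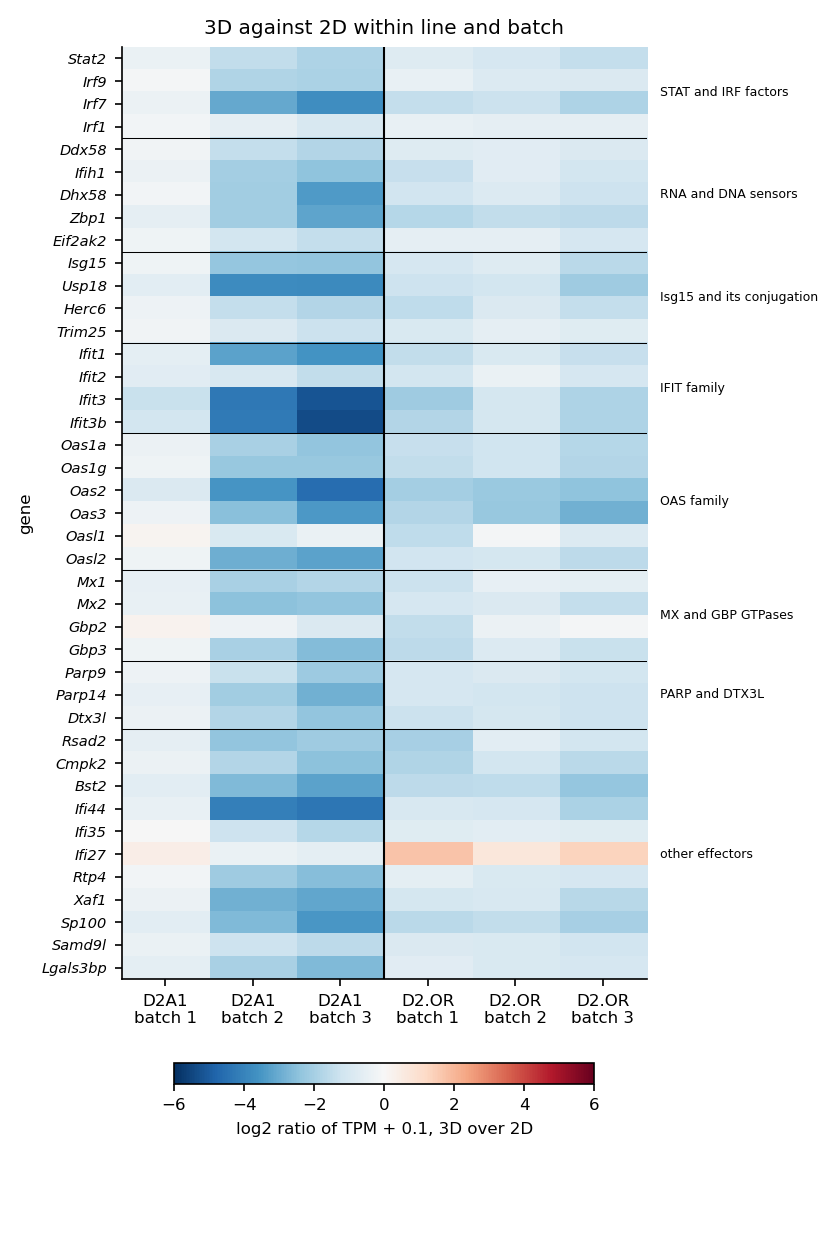
Each row is 1 of the 41 genes, ordered by role, and each column 1 pair of a line and a batch. Colour gives the log2 ratio of TPM + 0.1, 3D over 2D, with blue for lower in 3D. D2A1 batches 2 and 3 hold the deepest blue (down to -5.39), D2A1 batch 1 is pale (median -0.34), and Ifi27 is the row in red in D2.OR.

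Tests across all genes called few of these falls at the adjusted threshold. By edgeR's quasi-likelihood test with a batch term and Benjamini-Hochberg adjustment over 16823 genes, 2 of 41 members fell in 3D in D2A1, Ifit2 and Stat2, against 2.12% of all genes, and 0 rose, against 1.37%. At an unadjusted p under 0.05, 37 members were lower and 0 higher, against 16.6% and 14.8% of all genes. In D2.OR, Oas3 and Stat2 fell and Ifi27 rose, against 0.785% and 0.838% of all genes. At an unadjusted p under 0.05, 33 were lower and 1 higher, against 9.42% and 8.21%. The fitted log2-fold change was below 0 for 41 of 41 members in D2A1 (median -1.37) and for 40 of 41 in D2.OR (median -1.22), with a median over all genes of 0.00 in D2A1.

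Leaving out D2A1 3D replicate 1 raised the calls to 38 members lower in D2A1 (7.90% of all genes) and 36 lower with 1 higher in D2.OR (1.83% and 1.2%). Leaving out all of batch 1 gave 38 (18.9%), and 36 with 1 higher (4.70% and 3.69%). Leaving out all of batch 2, or all of batch 3, gave 0 in both lines, as it did for nearly all genes: 0 of 17005 without batch 2, and without batch 3 0 of 16980 in D2A1 and 1 in D2.OR. The 3 members not called in D2A1 in either of the first 2 fits were Gbp2, Oasl1 and Ifi27. The calls of Ifit2 and Stat2 in D2A1 were also lost without replicate 2 or 3 of D2A1 2D, of D2A1 3D or of D2.OR 2D, or without D2.OR 3D replicate 3, and that of Stat2 without either of the other D2.OR 3D libraries. Those of Stat2 and Oas3 in D2.OR were lost without any 1 of the 6 D2.OR libraries, without replicate 2 of D2A1 2D or of D2A1 3D, and by limma (adjusted p = 0.0552 to 0.0777). DESeq2's likelihood-ratio test, which the study used for the interaction and which was applied here to each comparison, called 36 lower in D2A1 (11.9% of all genes) and 16 lower with 1 higher in D2.OR (3.78% and 3.20%).

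**Figure D3:**
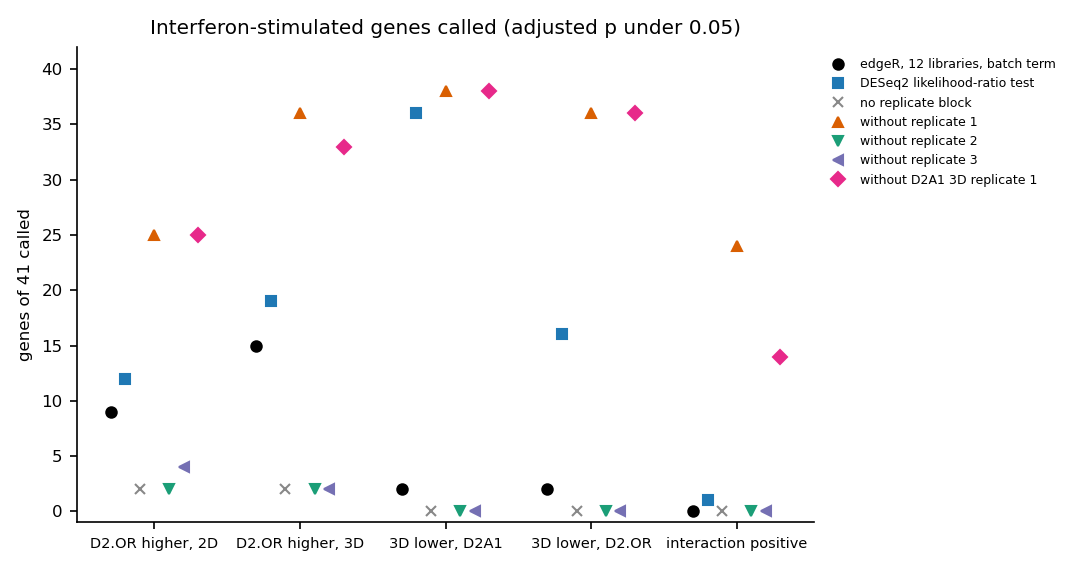
Points give how many of the 41 genes had an adjusted p under 0.05 in the direction named for each comparison (x axis), with 1 symbol for each fit. Among the fits plotted, those without replicate 1 or without D2A1 3D replicate 1 lie highest in every comparison, and fits without replicate 2 or 3 lie at 0 to 4.

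Among the STAT and IRF factors, Stat2 (ENSMUSG00000040033, chr10:128270559-128292849), the subunit that gives ISGF3 its activating domain, fell in both lines. Its level in D2A1 was 78.4, 57.4 and 72.3 TPM in 2D and 60.0, 20.6 and 20.0 TPM in 3D. In D2.OR it was 147.0, 94.3 and 108.0 TPM in 2D and 85.2, 46.3 and 40.1 TPM in 3D. The D2.OR cultures did not overlap, and in D2A1 only replicate 1 of 3D reached into the 2D range. The log2-fold change of Stat2 was -1.15 (SE 0.24, adjusted p = 0.0453, edgeR) in D2A1 and -1.25 (SE 0.24, adjusted p = 0.0431) in D2.OR.

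Irf7, the factor that amplifies type I interferon transcription, was at 402.0, 176.0 and 229.0 TPM in D2A1 2D and at 317.0, 20.9 and 17.3 TPM in D2A1 3D. In D2.OR it was at 972.0, 348.0 and 491.0 TPM in 2D and at 365.0, 143.0 and 135.0 TPM in 3D. The fall in D2A1 was thus large in batches 2 and 3 and small in batch 1. Its log2-fold change in 3D did not pass in D2A1 (-2.04, SE 0.61, adjusted p = 0.07, edgeR) or in D2.OR (-1.61, SE 0.57, adjusted p = 0.186). Irf9, the DNA-binding subunit of ISGF3, had log2-fold changes of -1.13 and -0.78 that did not pass either.

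Irf1 (chr11:53770014-53778374), a transcription factor induced by interferon gamma and shown above for its GAS core, and Ifi27 were the 2 members that were not above the other batches in batch 1 of 2D in either line. Irf1 was at 48.6, 46.0 and 53.0 TPM in D2A1 2D and at 43.4, 31.8 and 26.7 TPM in D2A1 3D. It was at 91.5, 108.0 and 114.0 TPM in D2.OR 2D and at 66.9, 72.9 and 77.9 TPM in D2.OR 3D. Replicate 1 was not the highest in 3 of these 4 groups. Its log2-fold changes in 3D, -0.42 in D2A1 and -0.62 in D2.OR, did not pass. Irf1 was the one member whose D2A1 cultures did not overlap (15.3% of all genes were lower without overlap), and 0 were higher without overlap (9.56%). In D2.OR, 26 members were lower without overlap, against 7.58% of all genes, and Ifi27 alone was higher (13.0%).

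The sensors of viral RNA and DNA were lower in 3D without passing the test. These are Ddx58 (RIG-I), Ifih1 (MDA5), Dhx58 (LGP2), Zbp1 and the kinase Eif2ak2 (PKR). Their fitted changes in D2A1 ran from -1.61 for Dhx58 to -0.87 for Eif2ak2 on the log2 scale, with adjusted p-values of 0.0662 to 0.076 (edgeR). Dhx58 was at 71.0, 33.8 and 48.0 TPM in D2A1 2D and at 63.2, 7.96 and 4.47 TPM in 3D, so the cultures were close in batch 1 and far apart in the other batches. In D2.OR the sensors ran from -1.62 for Zbp1 to -0.77 for Eif2ak2, with adjusted p-values of 0.125 to 0.246.

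Isg15, the ubiquitin-like protein joined to other proteins during the response, was the second most abundant member after Bst2 by group mean in 2D. Its level was 1349.0, 677.0 and 665.0 TPM in D2A1 2D and 1120.0, 137.0 and 127.0 TPM in D2A1 3D. It was 1448.0, 706.0 and 929.0 TPM in D2.OR 2D and 717.0, 416.0 and 304.0 TPM in D2.OR 3D. Usp18, the protease that removes Isg15 and dampens receptor signalling, was at 262.0, 119.0 and 114.0 TPM in D2A1 2D and at 171.0, 8.56 and 7.86 TPM in D2A1 3D. Neither gene passed in either line: the log2-fold changes of Isg15 were -1.37 (SE 0.44) and -1.20 (SE 0.43), and those of Usp18 were -2.31 (SE 0.69) and -1.59 (SE 0.64). Herc6, the Isg15 ligase of the mouse, and Trim25, a ubiquitin ligase that acts on RIG-I, did not pass either. Herc6 had log2-fold changes of -1.09 in D2A1 and -1.30 in D2.OR, and Trim25 of -0.66 and -0.76.

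The Ifit genes encode proteins that bind viral RNA. Ifit2 (chr19:34550694-34576419) was at 52.6, 22.7 and 29.8 TPM in D2A1 2D and at 33.0, 11.7 and 10.6 TPM in D2A1 3D. It was at 55.5, 22.8 and 24.6 TPM in D2.OR 2D and at 25.6, 17.1 and 12.3 TPM in D2.OR 3D. The cultures overlapped, with 3D the lower of the pair in each batch. The fall of Ifit2 passed in D2A1 (log2-fold change -0.96, SE 0.19, adjusted p = 0.041, edgeR), and its value in D2.OR (-0.89, SE 0.19, adjusted p = 0.056) did not.

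Ifit3 had the largest fitted change of all members in D2A1. It was at 214.0, 37.6 and 58.0 TPM in D2A1 2D and at 85.2, 1.86 and 1.52 TPM in D2A1 3D. It was at 461.0, 91.1 and 115.0 TPM in D2.OR 2D and at 104.0, 44.1 and 32.1 TPM in D2.OR 3D. Over batches 2 and 3, the ratio of 2D to 3D was 28.3-fold in D2A1 and 2.70-fold in D2.OR, while in batch 1 it was 2.52-fold and 4.41-fold. The order of the lines thus differed between batches. The log2-fold change of -2.94 (SE 0.82, adjusted p = 0.0634, edgeR) in D2A1 did not pass. Ifit3b followed it closely, with -2.88 in D2A1 and -1.53 in D2.OR, and the split of reads between these copies is uncertain. Ifit1 had -2.08 and -1.28, and none of these passed.

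The Oas genes encode synthetases of 2-5A, the small messenger that activates RNase L. Oas3 (chr5:120753098-120777661) was at 96.5, 43.0 and 72.5 TPM in D2A1 2D and at 78.7, 7.44 and 6.57 TPM in D2A1 3D. It was at 113.0, 36.9 and 50.8 TPM in D2.OR 2D and at 33.2, 7.59 and 6.84 TPM in D2.OR 3D. In D2.OR the cultures did not overlap, and the fall passed (log2-fold change -2.37, SE 0.48, adjusted p = 0.0476, edgeR). In D2A1 it missed the threshold (-1.94, SE 0.49, adjusted p = 0.0548), with replicate 1 of 3D above 2 of the 2D libraries. Oas2 went from 75.9, 12.1 and 23.9 TPM to 42, 0.94 and 0.92 TPM in D2A1, and from 241.0, 70.6 and 66.5 TPM to 57.8, 14.7 and 12.5 TPM in D2.OR. Oasl1, which encodes a relative without synthetase activity, differed least among the Oas genes in D2A1 (log2-fold change -0.24, SE 0.37). Oas1a, Oas1g and Oasl2 had -1.30, -1.32 and -1.78 in D2A1 and -1.48, -1.58 and -1.38 in D2.OR, none past the threshold.

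Among the GTPases, Mx1, an inhibitor of influenza virus, was at 4.80, 2.06 and 1.80 TPM in D2A1 2D and at 3.38, 0.46 and 0.46 TPM in D2A1 3D. In D2.OR it was at 24.0, 8.93 and 8.93 TPM in 2D and at 9.60, 6.27 and 5.86 TPM in 3D. Neither change of culture passed for Mx1. Gbp2, a guanylate-binding protein strongly induced by interferon gamma, was at 113.0, 81.9 and 97.3 TPM in D2A1 2D and at 132.0, 66.9 and 53.2 TPM in D2A1 3D. Gbp2 was at 148.0, 79.1 and 69.0 TPM in D2.OR 2D and at 52.1, 61.7 and 63.0 TPM in D2.OR 3D. Its cultures overlapped in D2A1 (log2-fold change -0.14, SE 0.27) and not in D2.OR (-0.68, SE 0.27), and neither value passed. Mx2, the relative of Mx1, had -1.59 and -1.22, and Gbp3 had -1.36 and -1.26, in D2A1 and D2.OR.

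Parp9, Dtx3l and Parp14, which encode ADP-ribosyltransferases and the partner of Parp9, did not pass in either line. Their log2-fold changes in D2A1 ran from -1.51 for Parp14 to -1.05 for Parp9. Bst2 (chr8:71534255-71537456) was at 2454.0, 1081.0 and 1466.0 TPM in D2A1 2D and at 1573.0, 173.0 and 160.0 TPM in D2A1 3D. It was at 3715.0, 1484.0 and 2005.0 TPM in D2.OR 2D and at 1234.0, 519.0 and 396.0 TPM in D2.OR 3D. The log2-fold changes of Bst2 missed the threshold in D2A1 (-1.91, SE 0.45, adjusted p = 0.0513, edgeR) and in D2.OR (-1.88, SE 0.44, adjusted p = 0.073).

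The other effectors were also lower without passing. Rsad2 (viperin, which makes a chain-terminating nucleotide) and its neighbour Cmpk2, a nucleotide kinase, had log2-fold changes of -1.43 and -1.17 in D2A1 and -1.18 and -1.53 in D2.OR. Ifi44 was at 375.0, 172.0 and 183.0 TPM in D2A1 2D and at 275.0, 9.93 and 8.87 TPM in D2A1 3D, and its change of -2.36 had an SE of 0.83. In D2.OR, Ifi44 was at 455.0, 236.0 and 270.0 TPM in 2D and at 232.0, 115.0 and 72.2 TPM in 3D, without overlap. Ifi35, Rtp4 and Xaf1, a regulator of apoptosis, had -0.84, -1.34 and -1.73 in D2A1 and -0.74, -0.93 and -1.23 in D2.OR. Sp100, Samd9l and Lgals3bp had -1.92, -0.87 and -1.45 in D2A1 and -1.69, -1.03 and -0.95 in D2.OR.

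Ifi27 (chr12:103434211-103440239), a small membrane protein of the effector group, went the other way in D2.OR. It was at 89.0, 223.0 and 120.0 TPM in D2.OR 2D and at 296.0, 356.0 and 298.0 TPM in D2.OR 3D, with no overlap. In D2A1 it was at 186.0, 353.0 and 352.0 TPM in 2D and at 242.0, 265.0 and 237.0 TPM in 3D, with overlap. Its rise in D2.OR passed (log2-fold change 1.11, SE 0.22, adjusted p = 0.0476, edgeR), while the value in D2A1 was -0.07. The rise was no longer called without batch 2, without batch 3, without any 1 of the 6 D2.OR libraries, or without D2A1 2D replicate 2, D2A1 3D replicate 2 or D2A1 3D replicate 3. Batch 1 was the lowest replicate of Ifi27 in both 2D groups, where it was the highest for 39 of 41 members.

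**Figure D4:**
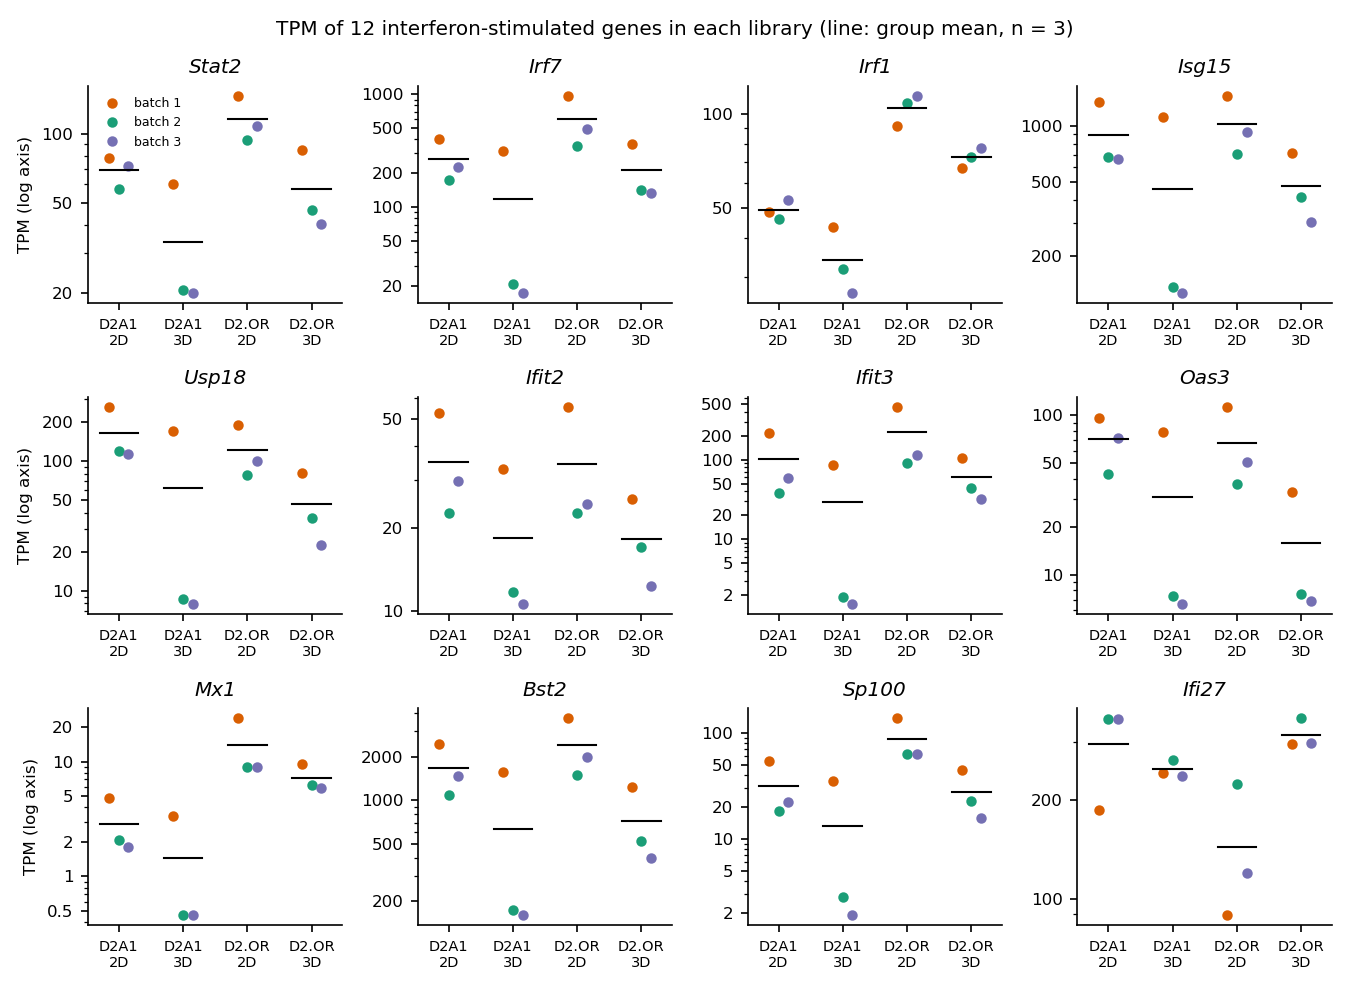
Each panel shows 1 gene, with points for the 12 libraries coloured by batch, a line at the mean of each group (n = 3) and TPM on a log axis. In D2A1 3D the batch 1 point lies far above the other points for Irf7, Isg15, Usp18, Ifit3, Oas3, Mx1, Bst2 and Sp100, while Irf1 and Ifi27 show no such gap.

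D2.OR had more of several members than D2A1, in 2D in a share near that of all genes. In 2D, 9 of 41 members were higher in D2.OR (22.0%, against 25.4% of all genes): Irf1, Stat2, Zbp1, Oas1g, Mx1, Parp14, Sp100, Samd9l and Lgals3bp. Ifi27 alone was lower (against 24.4% of all genes). In 3D, 15 were higher (36.6%, against 27.7%) and 0 lower (against 26.1%), with 0 lower at an unadjusted p under 0.05 (29.4% of all genes) and by DESeq2 and limma. All 9 genes higher in 2D were among these 15, and the others were Ifih1, Irf7, Irf9, Ifit3, Ifit3b and Oas2. The median log2-fold change of the members was 0.63 in 2D and 0.76 in 3D, against 0.00 in both over all genes. The 2 comparisons share no library but come from the same fit.

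Within batches, D2.OR was higher than D2A1 for 33, 33 and 32 of 41 members in 2D (28 of them in all 3 batches, against 28.0% of all genes) and for 15, 40 and 41 of 41 in 3D (batches 1, 2 and 3). In 3D, 15 were higher in all 3 batches (36.6%), against 38.7% of all genes. All genes gave 42.5%, 44.8% and 46.7% in 2D and 49.6%, 52.1% and 50.7% in 3D. The median log2 ratios of the members were 0.39, 0.46 and 0.52 in 2D and -0.33, 1.60 and 1.54 in 3D. The largest shift of all genes was -0.14, in batch 1 of 2D. In 3D, batch 1 thus differed in sign from batches 2 and 3. Without D2A1 3D replicate 1, 25 members were higher and 1 lower in 2D (25.5% and 23.7% of all genes), and 33 were higher and 0 lower in 3D (26.2% and 23.4%). Without batch 1, 36 were higher in 3D (29.7%). Without batch 2, 2 members were higher in each culture, against 14.0% of all genes in 2D and 17.0% in 3D. Without batch 3, the numbers were 4 in 2D and 2 in 3D, against 17.0% and 18.9%.

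**Figure D5:**
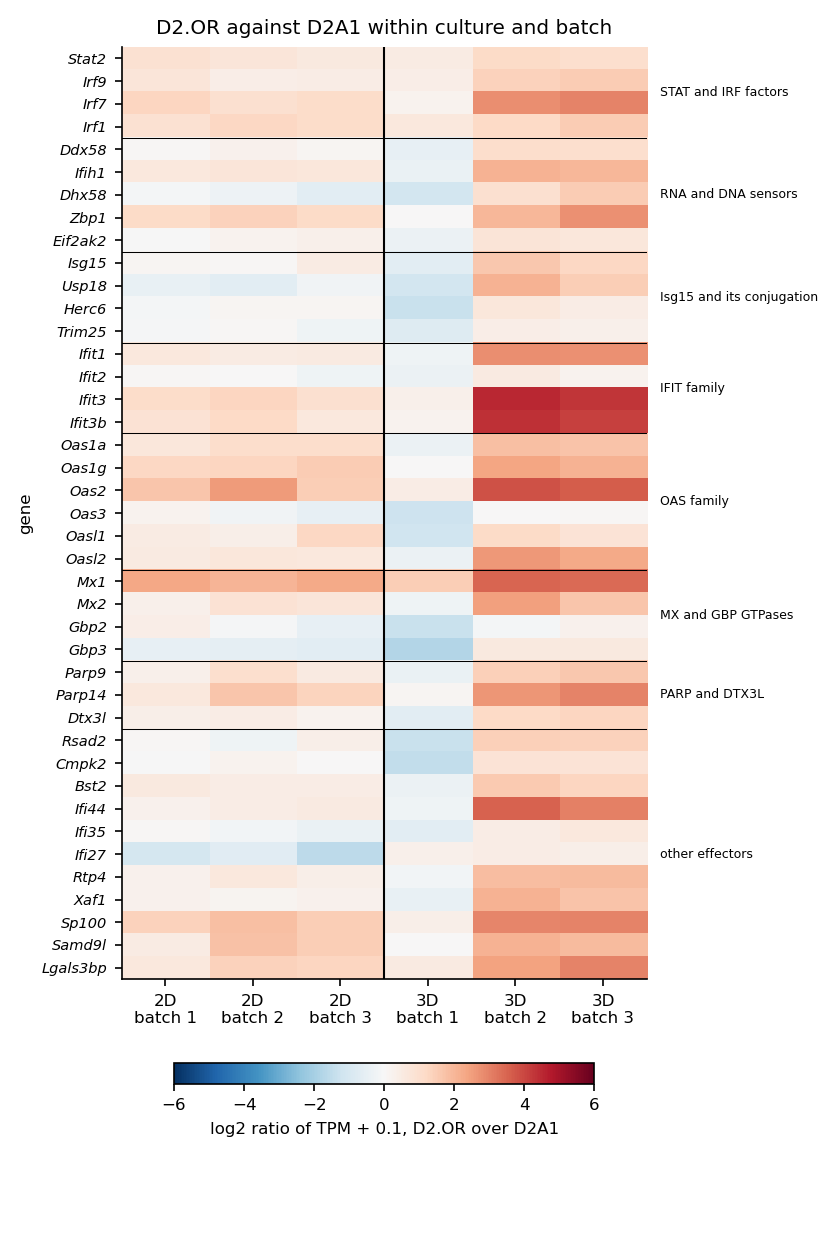
Each row is 1 of the 41 genes and each column 1 culture and batch. Colour gives the log2 ratio of TPM + 0.1, D2.OR over D2A1, with red for higher in D2.OR. Columns for 3D batches 2 and 3 are red for nearly all genes (medians 1.60 and 1.54), the column for 3D batch 1 is mixed (15 of 41 higher), and Mx1, Irf1, Stat2 and Lgals3bp are red throughout.

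Mx1 and Irf1 differed most firmly between the lines, and the levels of both did not overlap in either culture. Mx1 was higher in D2.OR by 2.29 (SE 0.44, adjusted p = 0.0023, edgeR) in 2D and by 3.03 (SE 0.47, adjusted p = 0.000623) in 3D, both log2-fold changes. Irf1 was higher by 1.25 (SE 0.17, adjusted p = 0.000348) in 2D and by 1.05 (SE 0.17, adjusted p = 0.000828) in 3D. Beside them, only Ifi27 was higher without overlap in 3D, where 29.1% of all genes were. In 2D, 9 members were (22.1% of all genes). Counts of Mx1 and Mx2 were not whole in any library, as stated above, and which genes share their reads was not examined.

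Lgals3bp, a secreted glycoprotein that binds galectins, was at 419.0, 176.0 and 200 TPM in D2A1 2D and at 646.0, 465.0 and 499.0 TPM in D2.OR 2D. In 3D it was at 276.0, 45.8 and 31.7 TPM in D2A1 and at 399.0, 248.0 and 247.0 TPM in D2.OR. The 2D groups did not overlap, and the differences were 1.29 (SE 0.43, adjusted p = 0.0334, edgeR) and 1.79 (SE 0.45, adjusted p = 0.00871) on the log2 scale. Sp100, a component of nuclear PML bodies, was at 53.6, 18.1 and 22.3 TPM in D2A1 2D and at 138.0, 63.2 and 62.9 TPM in D2.OR 2D. In 3D, Sp100 was at 34.7, 2.84 and 1.90 TPM in D2A1 and at 44.4, 22.5 and 15.6 TPM in D2.OR. It was higher in D2.OR by 1.72 (SE 0.53, adjusted p = 0.0232) and 1.95 (SE 0.56, adjusted p = 0.0158). Samd9l, a restriction factor for poxviruses, was at 71.8, 17.6 and 20.9 TPM in D2A1 2D and at 101.0, 59.4 and 57.7 TPM in D2.OR 2D (log2-fold change 1.42, SE 0.39, adjusted p = 0.0143). In 3D, Samd9l was at 54.7, 7.40 and 6.95 TPM in D2A1 and at 56.1, 31.7 and 26.1 TPM in D2.OR.

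Of the other members called in both cultures, Zbp1 was higher in D2.OR by 1.57 and 1.55, Oas1g by 1.47 and 1.21, Parp14 by 1.39 and 1.70 and Stat2 by 0.81 and 0.71, in 2D and 3D on the log2 scale. Those called in 3D alone were higher there by 0.96 (Irf9) to 2.59 (Ifit3). Of the members called higher in D2.OR, Mx1 and Irf1 alone were called in both cultures in each of the 22 other fits. The calls of all the others were lost in both cultures without the batch term and without batch 2, and without batch 3 Stat2 and Zbp1 kept theirs in 2D alone. In 2D the other 7 were not called without D2.OR 2D replicate 3, and all but Oas1g were lost without replicate 2 of either line in 2D and all but Samd9l without D2A1 2D replicate 1. Of these 7 in 3D, all but Lgals3bp were lost without D2A1 3D replicate 2, D2A1 3D replicate 3 or D2.OR 3D replicate 2.

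Ifi27 was lower in D2.OR than in D2A1 in 2D (log2-fold change -0.94, SE 0.22, adjusted p = 0.00681, edgeR), a call lost without batch 3. In 3D the levels were higher in D2.OR without passing the test. No member of the Isg15 group passed in either culture, with fitted changes of -0.26 to 0.38 in 2D and -0.05 to 0.55 in 3D. Without D2A1 3D replicate 1, Isg15, Usp18 and Herc6 were called higher in D2.OR in 3D.

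Whether 3D changed the members differently in the lines was asked by the interaction of line and culture, where a positive value means a smaller fall in D2.OR. By edgeR, 0 of 41 members passed in either direction, against 0.0178% of all genes upward and 0.00594% downward. At an unadjusted p under 0.05, 1 did, Ifi27 upward (9.61% of all genes), and 0 downward (8.2%). DESeq2's likelihood-ratio test called 1, Ifi27, against 3.33%. limma called 0. The interaction of Ifit3 was 1.35 (SE 1.08, adjusted p = 0.526, edgeR), that of Mx1 0.74 (SE 0.61, adjusted p = 0.538), and that of Gbp2 -0.54 (SE 0.38, adjusted p = 0.479). Without D2A1 3D replicate 1, 14 members passed upward (2.03% of all genes), among them Ifit1, Ifit3, Irf7, Mx1, Oas2, Usp18 and Sp100. Without batch 1, 24 did (9.17%), and 0 downward (8.64%). The fitted interaction was above 0 for 29 of 41 members (median 0.17), for 39 (median 0.89) without D2A1 3D replicate 1, and for 13 (median -0.12) and 12 (median -0.17) without replicate 2 and 3 of D2A1 3D. It was above 0 for 19 without D2A1 2D replicate 3 and for 18 without D2.OR 3D replicate 2. The direction and number of interactions thus depended on the libraries kept, and in batch 1 D2A1 fell less than D2.OR (medians -0.34 and -1.24).

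Other genes of the pathway were read from a list of 37, of which 27 passed the filter. The interferons themselves were at or near 0. Ifnb1, the interferon beta gene, was at 0 to 0.48 TPM, and Ifna1, Ifna2, Ifna5, Ifnl2 and Ifnl3 were at 0 in all 12 libraries. Ifng was at 0.55 TPM in D2.OR 2D replicate 1 and at no more than 0.05 TPM in the others. The type I receptor chains were present in every library, with Ifnar1 at 30.1 to 45.7 TPM and Ifnar2 at 46.4 to 98.4 TPM, while Ifnlr1, a receptor chain for lambda interferons, was at 0.06 to 0.49 TPM.

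In 3D, 0 of the 27 passed in D2A1, by edgeR (1.37% of all genes rose and 2.12% fell), and in D2.OR 0 rose and 2 fell (0.838% and 0.785%). These were Tmem173 (STING, the adaptor of DNA sensing; log2-fold change -0.84, SE 0.17, adjusted p = 0.0464) and Trex1 (the nuclease that clears cytosolic DNA; -1.06, SE 0.16, adjusted p = 0.0207).

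Between the lines, 12 of the 27 were higher and 2 lower in D2.OR in 2D (25.4% and 24.4% of all genes), and 11 were higher and 3 lower in 3D (27.7% and 26.1%). Ifngr1, the ligand-binding chain of the interferon gamma receptor, was higher by 1.75 (SE 0.18, adjusted p = 6.71e-05, edgeR) in 2D and by 2.07 (SE 0.18, adjusted p = 2.48e-05) in 3D. The kinases Jak1 and Jak2 were also higher in both cultures, Jak1 by 0.75 and 0.85 and Jak2 by 1.23 and 1.27. Socs1, a feedback inhibitor of these kinases, was lower, with log2-fold changes of -0.75 (SE 0.15) and -0.71 (SE 0.15), as was Ifnar2 (-0.26 and -0.27). The other genes listed as negative regulators did not all go the way of Socs1. Trex1 was higher in 2D (1.18, adjusted p = 0.000337, edgeR) and not called in 3D, and Samhd1 was higher in both cultures (0.52 and 0.65). Socs3 was lower in 3D alone (-1.15), and Pias1 and Adar were not called. None of the 27 passed in the interaction (0.0178% of all genes upward and 0.00594% downward).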

How the data were processed

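RNA-seq was analysed from 12 libraries of D2A1 and D2.OR cells. Per the submitters' processing notes and the study's methods, the authors trimmed reads with Trimmomatic 0.32, aligned them with STAR 2.5.3 to GRCm38 and quantified genes with RSEM 1.3.0. The deposited expected counts are not normalized and need not be whole (10.7% to 11.8% of genes of a library were not, at a tolerance of 0.001), and here they were rounded. The deposited TPM values were scaled by the authors to transcript length and library, so depth is lost.

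The test was edgeR 4.0.16 (R 4.3.3), quasi-likelihood, with TMM, edgeR's filter on low counts, terms for group and batch, and all 12 libraries, which leaves 6 residual degrees of freedom. The common biological coefficient of variation was 21.2%. Each SE given with an edgeR value is the absolute log2-fold change divided by the square root of the test's F statistic. P-values were adjusted by Benjamini-Hochberg over 16823 genes, with a threshold of 0.05. Alternatives were limma 3.58.1 with either 1 or 0.1 added to TPM, DESeq2 1.42.0 (likelihood-ratio test, and size factors used in edgeR), no filter, no batch term, the compared libraries alone, and each batch or library left out. The procedure was tested on simulated data. The study describes its repeats in general as biological, but the labels do not say that these replicates were separate cultures. If they were not, p-values measure only technical spread between these samples.

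Labels give each replicate's batch, so the replicate numbers pair the libraries. Deviations from group means correlated at 0.08 to 0.51 (median 0.27) over 18 same-number pairs and at -0.43 to 0.30 over 36 others.

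Members with the 4 smallest p in a contrast were given values in every library, as was any member called in the interaction. Irf7, Isg15, Oas2 and Ifi44, and with values in part of the libraries Dhx58, Usp18 and Ifng, were added once their values had been seen. Of the pathway list, values are given for the genes named, and the others enter counts alone, 1 of them because it is not reported here. The members and lists were chosen with earlier results of these data known. Promoter sequences are from RefSeq (GRCm38.p6), with entries for 31 of 41 members. Gene positions are GENCODE annotation of GRCm38.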

Additional observations from a re-analysis of the deposited data

Results flagged for a closer look

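The difference between the lines in Ifi27 had opposite directions in 2D and in 3D. In 2D the log2 ratio of D2.OR to D2A1 (TPM + 0.1) was -1.06, -0.66 and -1.56 in batches 1, 2 and 3. In 3D it was 0.29, 0.43 and 0.33. Each batch in 2D was thus below 0 and each batch in 3D above 0. The interaction of line and culture was 1.18 (SE 0.31, adjusted p = 0.146) by edgeR, which did not pass, and it passed by DESeq2's likelihood-ratio test. Batch 1, in which 39 of the 41 members were above the other batches in each 2D group, held the lowest Ifi27 level of both 2D groups, and whether the batch plays a part in the difference was not tested.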

How the results depend on the processing

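The number of members called changed with the fit. In the interaction the fitted sign of members that were not called changed too, and none was called downward in any fit. Without the batch term (the replicate block), edgeR called 2 higher in D2.OR in 2D and 2 in 3D (22.4% and 24.2% of all genes were higher). It called 1 lower in 2D, Ifi27 (21.5% of all genes), and 0 lower in 3D (23.6%). In that fit, 0 changed in 3D culture in D2A1 or in D2.OR in either direction (at most 0.196% and 0.0654% of all genes). With only the libraries compared, the 2D comparison of lines gave 25 higher and 2 lower (20.6% and 16.9% of all genes) and the 3D comparison 7 higher (28.8%), while 0 were lower in 3D in D2A1 (0.0523%) and 36 in D2.OR (3.05%). Without the filter, 11 were lower in D2A1 (2.23% of all genes) and 5 in D2.OR (0.734%). limma called 16 (TPM + 1) or 18 (TPM + 0.1) lower in D2A1 (4.53% and 5.46% of all genes) and 0 in D2.OR with either pseudocount (0.652% and 0.365%). DESeq2's likelihood-ratio test called 36 and 16 lower, and 1 in the interaction. Fits that left out a batch or a library gave 2 to 25 members higher (14.0% to 28.6% of all genes) and 0 to 1 lower (10.8% to 25.2%) in D2.OR in 2D, and 2 to 36 higher in 3D (17.0% to 30.1%). They gave 0 to 38 lower in D2A1 3D (0.0% to 18.9%), 0 to 36 lower (0.0% to 4.7%) and 0 to 1 higher (0.0% to 3.69%) in D2.OR 3D, and 0 to 24 upward in the interaction (0.0% to 9.17%). The fit without D2A1 2D replicate 1 called 20 lower in D2A1 (15% of all genes). The fitted interaction was above 0 for 5 of 41 members without the replicate block (median -0.22), for 11 without replicate 2 and for 15 without replicate 3 (median -0.14 in both), against 29 in the fit as reported. Of the 4 members with the smallest interaction p (Ifi27, Gbp2, Ifit3 and Mx1), Gbp2 turned sign without replicate 1 (values of -1.06 to 0.12 with a batch or library left out) and Ifit3 without the replicate block (-0.20), as did Ifit1, Irf7, Oas2, Usp18 and Sp100 (-0.91 to -0.14). Over 20 gene values and 436 alternatives, 328 kept direction and side of the threshold, 78 lost the call, 28 gained it and 2 turned. The cause of these changes was not tested. With DESeq2's size factors no count moved by more than 1.5 times. Depth did not limit the members, which had at least 34 counts in each library.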
